A study of Mus musculus with 32 samples.

Results

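Transcripts of 10 genes that encode feedback inhibitors of ERK signalling, or that are read out beside them, were followed through 32 polyA RNA-seq libraries of mouse brain. They were Dusp4, Dusp5, Dusp6, Spry1, Spry2, Spry4, Spred1, Spred2, Spred3 and Etv5, 10 of the 56415 genes in the deposited count table. They were chosen by name, after Dusp6 and Spred2 had been seen to respond to prenatal ethanol in opposite directions in the vermis of the 2 genotypes. For these 10 genes the vermis values of exposure, and of genotype within an exposure, are therefore given as descriptions without tests. Tests of the 10 genes are given for the hippocampus, for the difference between tissues, for genotype averaged over exposure and for sex. All 10 genes passed the filter on low counts in both tissues, and the lowest count of any of them in any library was 130, for Dusp4 in vermis.

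The mice were C57BL/6J, wild type (WT) or ACSS2 KO, and 40 to 50 days old. ACSS2 turns acetate, a product of ethanol breakdown, into acetyl-CoA. The labels name the knockout without its allele, and give no promoter or Cre driver. The 4 groups were KO mice with chronic prenatal ethanol (cPAE), KO mice with chronic prenatal saline (cPSE), WT mice with cPAE and WT mice with cPSE. Ethanol dams received 3 g/kg ethanol as a 20% solution in saline, given once a day into the peritoneum after the first of 5 nights with a stud and until birth, and saline dams received an equal volume of saline. Each group held 4 mice, the females F1 and F3 and the males M1 and M3, and each of the 16 mice gave a library of dorsal hippocampus (dHPC) and one of cerebellar vermis (Vms). The labels do not say which mice were littermates. Per-library values below are in the order F1, F3, M1, M3 and in CPM, counts scaled to library size, after scaling of all 32 libraries together.

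ERK is the last kinase of the RAS, RAF, MEK and ERK cascade, which growth factor and neurotrophin receptors switch on. Active ERK induces genes whose products shut the cascade down again, so their transcripts are often used as a readout of recent ERK activity. DUSP4, DUSP5 and DUSP6 are phosphatases that remove the activating phosphates from ERK, DUSP6 in the cytoplasm and the other two in the nucleus. Sprouty proteins (SPRY1, SPRY2, SPRY4) act between receptors and RAF, and SPRED proteins bring the RAS inactivator neurofibromin to the membrane. ETV5 is an ETS transcription factor, induced with these genes by FGF signalling in many tissues. In neurons the pathway carries signals of BDNF and of synaptic activity.

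Libraries held 23085928 to 73803508 counts in vermis and 54092519 to 96664509 in hippocampus. Acss2 itself averaged 16.3 ± 3.38 CPM in KO vermis and 60.3 ± 4.37 CPM in WT vermis, and 12.3 ± 1.101 CPM in KO hippocampus and 57.0 ± 4.35 CPM in WT hippocampus (SD, n = 8 each), with no overlap. The labels do not say which part of the gene was deleted. Markers of cerebellar granule neurons summed to 1259 to 5168 CPM in vermis and to 85.8 to 358 CPM in hippocampus, and markers of hippocampal pyramidal neurons to 164 to 645 CPM in vermis and 3440 to 5656 CPM in hippocampus. In vermis the libraries of cPAE KO F1 and M3 stood apart. Their granule neuron markers summed to 1259 and 2356 CPM, against 3578 to 5168 CPM in the other 14 vermis libraries, and their Purkinje neuron markers to 2528 and 5114 CPM, against 6263 to 8586 CPM. F1 also had the highest sum of oligodendrocyte markers in vermis, 12242 CPM, against 3718 to 6321 CPM in the other 15. Values without both libraries are given below beside the results that rest on them. They keep only F3 and M1 in cPAE KO vermis, so a call that ends there ends in a smaller group. F3 of that group had the fewest counts of all libraries, 23085928. In vermis a further measure moved with genotype: the median deviation of log2 CPM of the longest 25% of coding genes minus that of the shortest 25% ran from -0.26 to -0.02 in KO and from 0.02 to 0.13 in WT libraries, without overlap. In hippocampus it ran from -0.10 to 0.07 in KO and from -0.29 to 0.09 in WT. In bulk tissue, fewer cells of a type and less RNA per cell cannot be told apart.

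The windows around the transcript start of Dusp6 and Spred2 are shown because the choice of the 10 genes started from this pair. They run from 250 bases before to 50 bases after the start, as listed by RefSeq on GRCm38.p6 (the counts were made on GRCm39), at chr10:99262981-99263280 and chr11:19924192-19924491, both on the plus strand. Capitals mark 4 short motifs on either strand: the ETS core CGGAA, the cyclic AMP response element core TGACGT, the AP-1 site TGACTCA and CCAAT. The motifs were picked with the windows in view.
Dusp6: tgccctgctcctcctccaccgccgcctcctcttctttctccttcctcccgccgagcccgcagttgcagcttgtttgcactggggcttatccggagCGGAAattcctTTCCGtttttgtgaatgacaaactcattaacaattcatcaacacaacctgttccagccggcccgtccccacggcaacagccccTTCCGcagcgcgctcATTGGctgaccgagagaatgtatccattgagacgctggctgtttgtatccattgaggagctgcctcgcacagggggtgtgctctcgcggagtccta
Spred2: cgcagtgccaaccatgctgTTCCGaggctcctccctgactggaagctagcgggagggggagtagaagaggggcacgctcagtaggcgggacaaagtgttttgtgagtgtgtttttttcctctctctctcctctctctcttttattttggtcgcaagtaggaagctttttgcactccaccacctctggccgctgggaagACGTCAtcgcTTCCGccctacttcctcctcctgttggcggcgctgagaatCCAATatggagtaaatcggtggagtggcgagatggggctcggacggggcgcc
The Dusp6 window held 3 ETS cores, 61, 144 and 155 bases before the start, and 1 CCAAT, 46 bases before it. Spred2 held 2 ETS cores, 42 and 231 bases before the start, a response element core 52 bases before it and a CCAAT 2 bases before it. No matches overlapped. Of all 32851 windows of this length, 29.9% held the ETS core, 7.51% the response element core, 5.20% the AP-1 site and 37.4% CCAAT. RefSeq windows were found for 8 of the 10 genes, and the ETS core was in those of Dusp5, Dusp6, Spred1, Spred2 and Spry2. These matches describe letters only.

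Levels between genes were compared as CPM per kb of exon. In vermis Dusp5 was the highest, at 40.5 ± 11.7 CPM per kb (SD over 16 libraries). Spred1 (21.2 ± 2.66), Spry2 (20.5 ± 1.69), Spred2 (20.3 ± 5.03) and Etv5 (16.4 ± 2.32) followed. Dusp6 (6.13 ± 1.32), Spry4 (4.77 ± 1.084), Spred3 (4.18 ± 0.71), Dusp4 (3.05 ± 0.66) and Spry1 (3.02 ± 0.32) were lower. The only neighbours in this order whose ranges did not overlap were Etv5 and Dusp6. In hippocampus the order was Spred2 (22.9 ± 2.54 CPM per kb), Spry2 (20.5 ± 2.41), Spred1 (19.4 ± 1.52), Dusp6 (19.2 ± 2.30), Etv5 (16.9 ± 2.88), Dusp4 (9.94 ± 1.58), Dusp5 (8.99 ± 2.32), Spred3 (7.36 ± 0.76), Spry1 (4.14 ± 0.68) and Spry4 (3.48 ± 0.35). There Spred3 and Spry1 were the only neighbours without overlap.

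Of the 10 genes, the 3 ERK phosphatases differed most between the tissues. Dusp4 ranged over 5.50 to 12.1 CPM in vermis and 20.97 to 34.7 CPM in hippocampus (log2 fold change -1.71 ± 0.08 SE, vermis over hippocampus). Dusp6 ranged over 14.8 to 27.3 CPM in vermis and 44.2 to 75.1 CPM in hippocampus (-1.67 ± 0.06). Dusp5 ran the other way, at 39.99 to 143 CPM in vermis and 10.3 to 31.7 CPM in hippocampus (2.15 ± 0.12). For these 3 genes the tissues did not overlap (adjusted p = 1.69e-11, 1.42e-13 and 1.14e-09, edgeR's quasi-likelihood test with mouse as a block). How many of all genes did not overlap between the tissues was not counted. Of the 3 phosphatases, the nuclear Dusp5 had the highest level per kb in vermis and the cytoplasmic Dusp6 the highest in hippocampus. Other MAPK phosphatases were not ranked by level. Spred3 was lower in vermis (-0.83 ± 0.05, adjusted p = 1.50e-10), as were Spry1 (-0.44 ± 0.06, adjusted p = 1.33e-06) and Spred2 (-0.20 ± 0.05, adjusted p = 0.00127). Spry4 was higher in vermis (0.43 ± 0.06, adjusted p = 6.50e-06), and so was Spred1, by 0.12 ± 0.05 (adjusted p = 0.0249). The Spred1 call ended without the mouse cPSE WT M3 (adjusted p = 0.0598) or cPSE KO M3 (0.0594), and its adjusted p ran from 0.000912 to 0.128 over all alternatives. Spry2 (0.00 ± 0.04) and Etv5 (-0.04 ± 0.05) were not called. Of the list, 8 of the 10 genes passed at an adjusted p of 0.05, where 72.6% of the 24458 genes tested passed. That share is near the one of all genes.

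**Figure D1:**
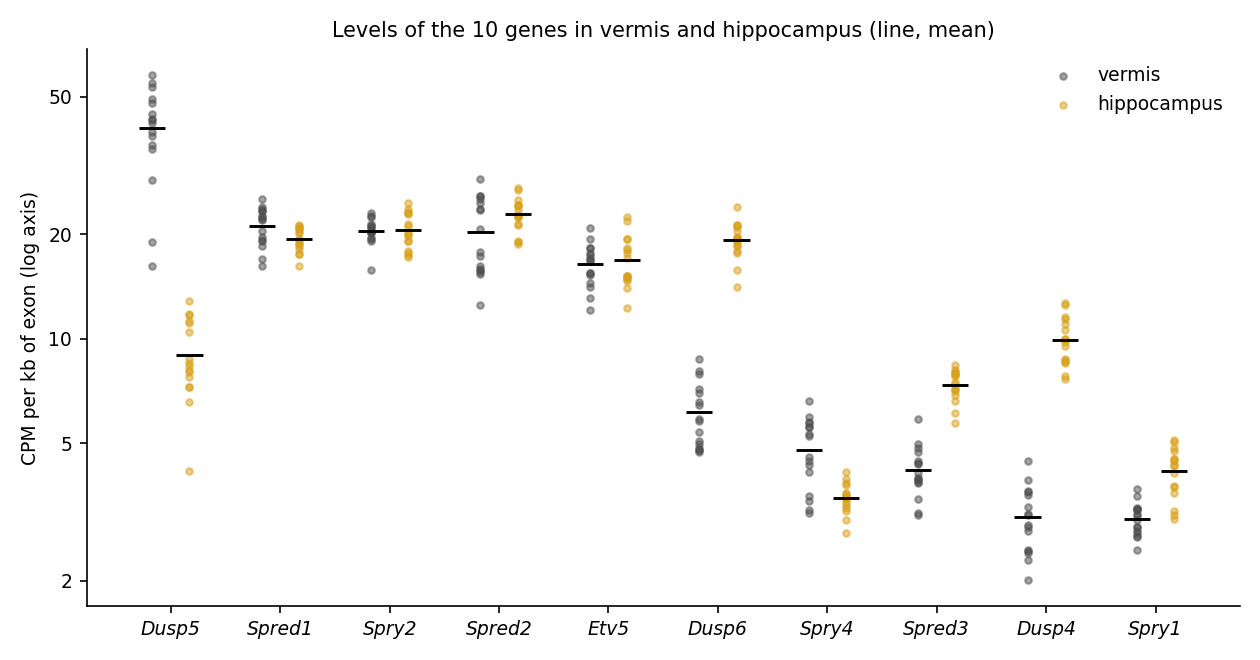
Levels of the 10 genes in CPM per kb of exon on a log axis, 16 vermis libraries (grey) left of 16 hippocampal libraries (yellow) for each gene, with the mean as a line. Dusp5 sits higher in vermis, Dusp4, Dusp6 and Spred3 sit higher in hippocampus, and Spry2 and Etv5 are level.

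In vermis, Dusp6 and Spred2 took the same course across the 4 groups. Both were higher in cPAE than in cPSE in WT mice and lower in cPAE than in cPSE in KO mice, so cPAE KO mice stood near cPSE WT mice. These are the values on which the genes were chosen. Dusp6, the cytoplasmic ERK phosphatase, had 15.0, 15.1, 18.4 and 15.6 CPM in cPAE KO vermis, against 20.6, 24.7, 18.1 and 22.4 CPM in cPSE KO vermis. It had 20.2, 25.3, 21.8 and 27.3 CPM in cPAE WT vermis, against 15.0, 16.8, 14.8 and 15.9 CPM in cPSE WT vermis. The WT groups did not overlap, and the KO groups overlapped by 1 pair, cPAE M1 at 18.4 and cPSE M1 at 18.1. The log2 fold changes of ethanol over saline were -0.41 ± 0.11 (SE) in KO and 0.59 ± 0.11 in WT.

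Spred2, whose product recruits neurofibromin to RAS, had 59.6, 75.03, 98.4 and 77.2 CPM in cPAE KO vermis, against 112, 117, 84.4 and 123 CPM in cPSE KO vermis. It had 121, 123, 137 and 112 CPM in cPAE WT vermis, against 74.2, 75.6, 72.9 and 82.3 CPM in cPSE WT vermis. Again the WT groups stood apart, and in KO only cPAE M1 lay above the lowest saline library, cPSE M1. The plot of both genes by library shows these groups. The log2 fold changes were -0.49 ± 0.13 in KO and 0.69 ± 0.13 in WT. The differences between the genotypes' responses were -1.18 ± 0.19 for Spred2 and -1.004 ± 0.16 for Dusp6. Read the other way, KO over WT was 0.46 ± 0.11 for Dusp6 and 0.53 ± 0.13 for Spred2 after saline, and -0.54 ± 0.11 and -0.65 ± 0.13 after ethanol, with no overlap in either exposure for either gene. The contrasts of ethanol in WT and of genotype after saline share the cPSE WT mice.

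**Figure D2:**
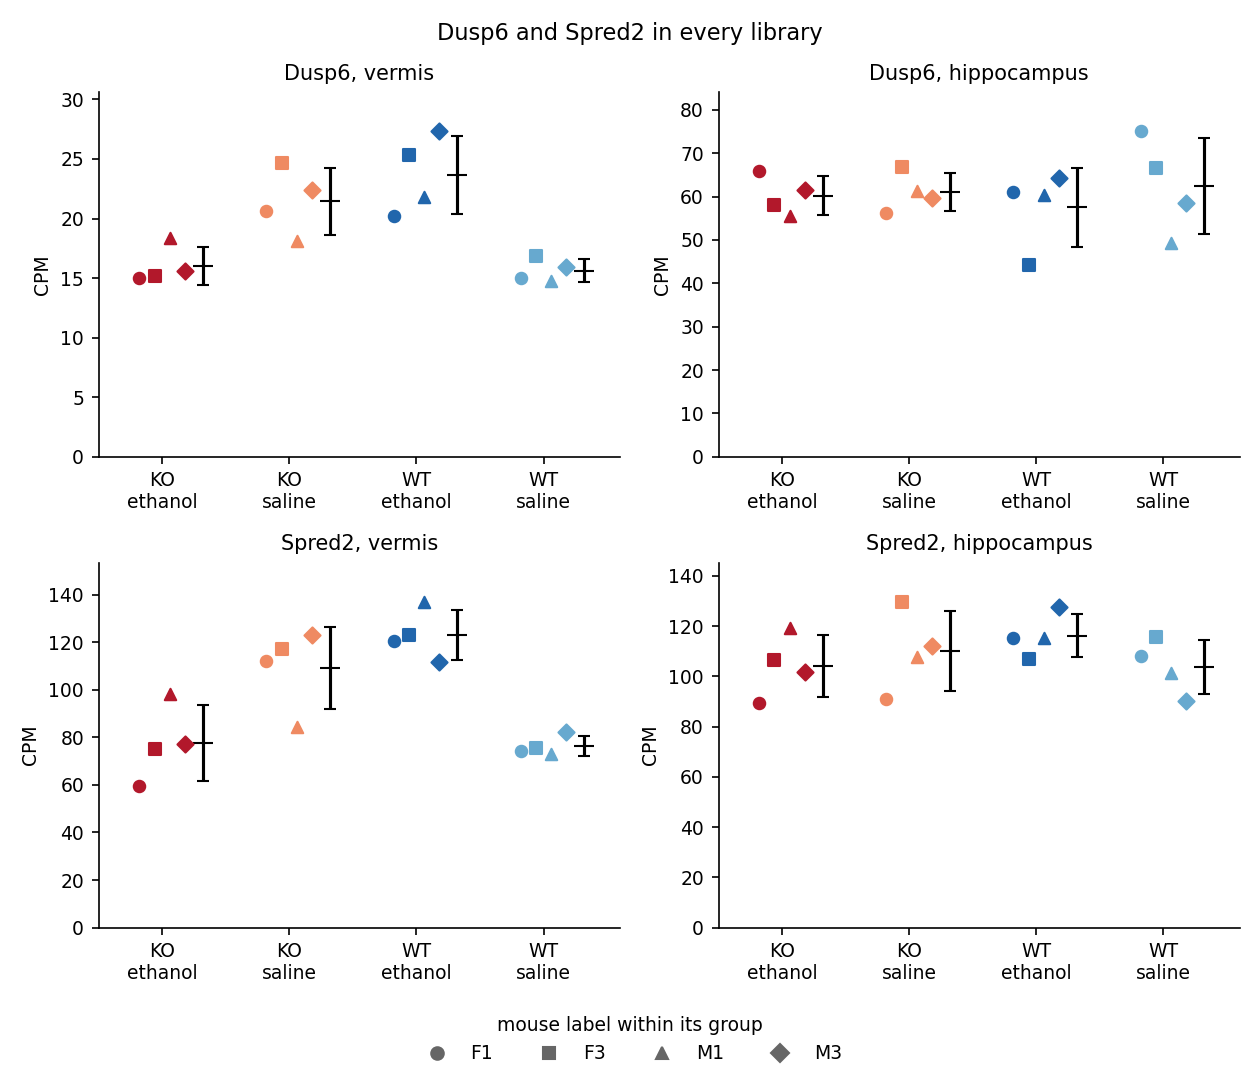
CPM of Dusp6 (top) and Spred2 (bottom) in each library of vermis (left) and hippocampus (right), by group, with mean ± SD (n = 4) beside the points and marker shape for the mouse label. In vermis cPAE WT and cPSE KO lie above cPSE WT for both genes, at 111.9 CPM or more for Spred2 in cPAE WT. In hippocampus the 4 groups overlap.

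Without cPAE KO F1 and M3, with F3 and M1 left in that group, the response in KO was -0.35 for Dusp6 and -0.33 for Spred2. The difference between responses was then -0.94 and -1.01. With the level of granule neuron markers as a covariate that difference was -0.98 for Dusp6 and -0.95 for Spred2, and KO over WT after ethanol was -0.44 for Spred2. With an offset for transcript length the difference was -1.03 for Dusp6 and -1.19 for Spred2, and KO over WT was -0.57 and -0.64 after ethanol and 0.46 and 0.55 after saline. Over all alternatives the difference ran from -1.11 to -0.92 for Dusp6 and from -1.30 to -0.95 for Spred2.

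The transcript models of both genes split the 4 vermis groups in the same way, although the counts of overlapping models share reads. The longest Dusp6 model, Dusp6-201, averaged 15.99 ± 1.54 CPM in cPAE KO, 21.4 ± 2.81 in cPSE KO, 23.6 ± 3.20 in cPAE WT and 15.6 ± 0.89 in cPSE WT vermis (SD, n = 4 each). The longest Spred2 model, Spred2-202, averaged 77.4 ± 16.04 CPM in cPAE KO, 109 ± 17.1 in cPSE KO, 123 ± 10.4 in cPAE WT and 76.1 ± 4.22 in cPSE WT vermis. In all 4 models listed for Dusp6 and all 4 for Spred2 the vermis means of cPAE WT and cPSE KO lay above those of cPAE KO and cPSE WT.

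The nuclear phosphatases Dusp4 and Dusp5 had the same signs, with more spread. Dusp4 had 7.61, 5.50, 6.67 and 9.69 CPM in cPAE KO vermis, against 7.96, 8.57, 9.91 and 10.7 CPM in cPSE KO vermis (-0.32 ± 0.19, and -0.60 without cPAE KO F1 and M3). It had 8.96, 8.51, 12.1 and 7.85 CPM in cPAE WT vermis, against 6.71, 9.99, 6.60 and 6.30 CPM in cPSE WT vermis (0.32 ± 0.19). Both pairs of groups overlapped, and cPSE WT F3 lay well above the rest of its group. Dusp5 had 39.99, 121, 71.1 and 47.0 CPM in cPAE KO vermis, against 132, 106, 95.4 and 135 CPM in cPSE KO vermis (-0.75 ± 0.28). The lowest cPAE KO values were those of F1 and M3, the libraries low in granule and Purkinje neuron markers, and the group averaged 69.8 ± 36.8 CPM (SD, n = 4). Without both, the Dusp5 response in KO was -0.30, and with granule neuron markers as a covariate -0.37. In WT vermis Dusp5 had 118, 110, 143 and 87.0 CPM after cPAE, against 97.9, 104, 106 and 89.9 CPM after cPSE (0.20 ± 0.28), with overlap.

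**Figure D3:**
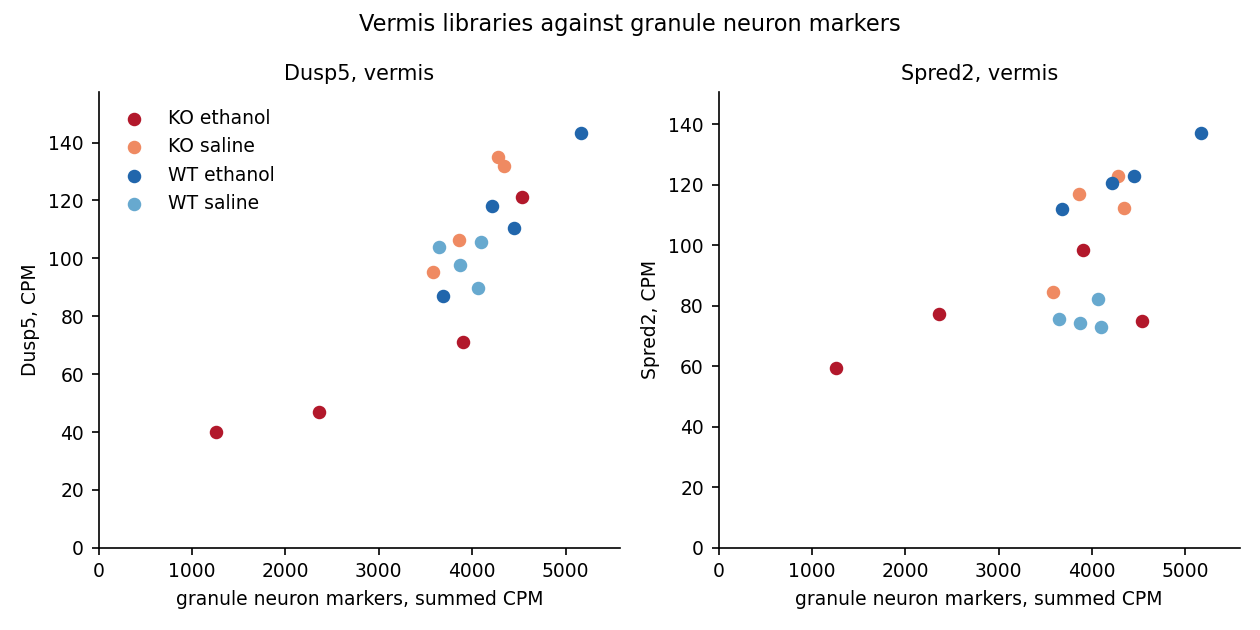
Dusp5 (left) and Spred2 (right) in CPM against the summed CPM of 6 granule neuron markers in the 16 vermis libraries, coloured by group. The cPAE KO libraries at 1259 and 2356 CPM of markers are the lowest for Dusp5. The library at 1259 CPM is also the lowest for Spred2, at 59.6 CPM. Spred2 in the cPSE WT libraries lies at 72.9 to 82.3 CPM, at marker levels of 3645 to 4099 CPM. Correlations of log2 CPM with these markers were 0.91 for Dusp5 and 0.62 for Spred2.

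Among the Sprouty genes, Spry4 had the signs of Dusp6 and Spred2. It had 19.7, 16.7, 15.2 and 25.2 CPM in cPAE KO vermis, against 27.1, 27.3, 28.3 and 26.4 CPM in cPSE KO vermis, with no overlap (-0.49 ± 0.19). It had 26.4, 20.5, 31.3 and 21.1 CPM in cPAE WT vermis, against 21.7, 24.9, 16.2 and 14.9 CPM in cPSE WT vermis, with overlap (0.36 ± 0.19). The 4 cPSE KO libraries were close together and above all 4 cPSE WT libraries. Without cPAE KO F1 and M3 the response in KO was -0.77. Spry2 stayed between 33.0 and 48.0 CPM in all 16 vermis libraries, and its response was -0.02 ± 0.08 in KO and 0.05 ± 0.08 in WT. Spry1 stayed between 7.15 and 10.7 CPM (0.05 ± 0.11 in KO, -0.11 ± 0.11 in WT). Without cPAE KO F1 and M3 the response in KO was 0.09 for Spry2 and 0.12 for Spry1.

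Of the SPRED genes, Spred1 did not overlap between ethanol and saline in WT, and Spred3 had the opposite signs of Dusp6. Spred1 had 150, 110, 149 and 172 CPM in cPAE KO vermis, against 131, 152, 138 and 161 CPM in cPSE KO vermis (0.01 ± 0.10). Without cPAE KO F1 and M3 this response was -0.17, and KO over WT after ethanol was -0.28, against -0.10 with them. It had 153, 158, 159 and 163 CPM in cPAE WT vermis, against 115, 133, 125 and 130 CPM in cPSE WT vermis, with no overlap (0.32 ± 0.10). Spred3 had 30.8, 23.8, 29.4 and 36.5 CPM in cPAE KO vermis, against 19.5, 21.4, 27.2 and 19.3 CPM in cPSE KO vermis (0.47 ± 0.12). Its highest values were in F1 and M3, and without both the response in KO was 0.29. In WT vermis Spred3 had 23.9, 24.6, 24.6 and 25.5 CPM after cPAE, against 24.3, 30.2, 27.6 and 27.0 CPM after cPSE (-0.15 ± 0.12). Etv5, the transcription factor of the list, behaved like Spred1, with 62.5, 63.7, 85.8 and 71.5 CPM in cPAE KO against 68.9, 70.4, 58.0 and 74.9 CPM in cPSE KO vermis (0.06 ± 0.10, and 0.14 without cPAE KO F1 and M3). It had 69.5, 72.5, 79.7 and 74.8 CPM in cPAE WT, against 49.7, 59.4, 63.4 and 53.9 CPM in cPSE WT vermis, with no overlap (0.38 ± 0.10).

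**Figure D4:**
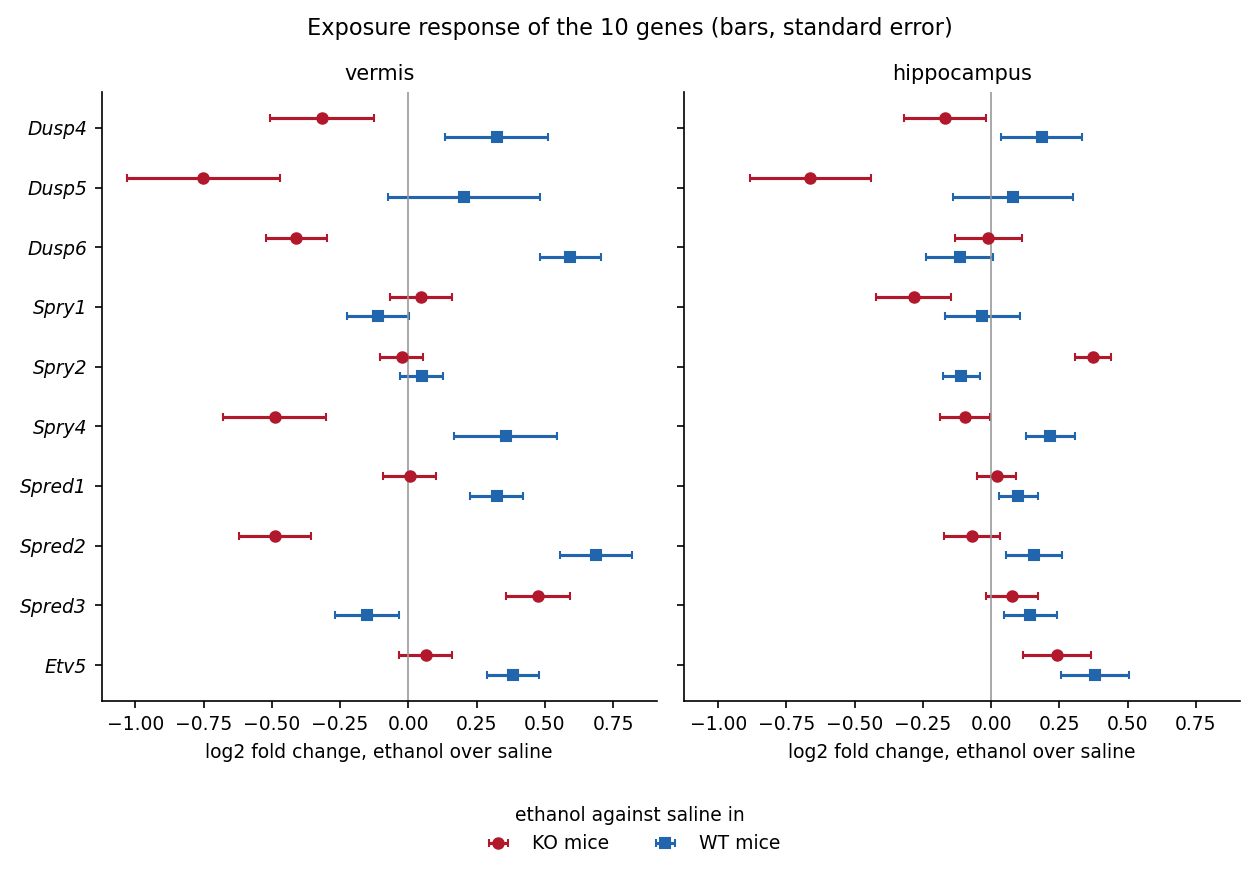
Log2 fold change of ethanol over saline with its standard error for each gene, in KO mice (red circles) and WT mice (blue squares), in vermis (left) and hippocampus (right). In vermis KO lies below 0 and WT above it for Dusp4, Dusp5, Dusp6, Spry4 and Spred2 by 0.20 or more on either side, and Spred3 lies at 0.47 in KO and -0.15 in WT. In hippocampus Spry2 lies at 0.37 in KO and -0.11 in WT.

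Counted over the list, ethanol and saline groups did not overlap for 1 of the 10 genes in KO vermis (Spry4, lower) and for 4 in WT vermis (Dusp6, Spred1, Spred2 and Etv5, higher). Over all 22441 genes tested in vermis that share was 5.27% in KO and 4.88% in WT. KO and WT did not overlap for 2 genes after ethanol (Dusp6 and Spred2, lower, against 12.7% of all genes) and for 3 after saline (Dusp6, Spred2 and Spry4, higher, against 13% of all genes). The median size of the difference between responses was 0.63 over the 10 genes and 0.21 over all genes. Since this contrast chose the list, nothing is read from these counts. As background, edgeR at an adjusted p of 0.05 called 0.0891% of all vermis genes for ethanol in KO, 0.00446% for ethanol in WT, 7.53% for KO after ethanol, 4.91% for KO after saline and 0.107% for the interaction.

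In hippocampus, whose values did not choose the genes, the groups overlapped for Dusp6 and for Spred2. Dusp6 had 66.0, 58.0, 55.5 and 61.4 CPM in cPAE KO, against 56.3, 66.8, 61.2 and 59.6 CPM in cPSE KO hippocampus (-0.01 ± 0.12). It had 61.1, 44.2, 60.4 and 64.3 CPM in cPAE WT, against 75.1, 66.7, 49.4 and 58.5 CPM in cPSE WT hippocampus (-0.12 ± 0.12). All groups overlapped. The difference between responses was 0.11 ± 0.17 for Dusp6 and -0.23 ± 0.14 for Spred2 (adjusted p = 0.891 and 0.639, edgeR's quasi-likelihood test). Whether the vermis and hippocampal responses differ was not tested, since the vermis values chose the genes. Spred2 ranged over 89.4 to 119 CPM in cPAE KO and 91.0 to 130 CPM in cPSE KO, and over 107 to 128 CPM in cPAE WT and 90.3 to 116 CPM in cPSE WT hippocampus.

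Spry2, a Sprouty protein that inhibits receptor signalling upstream of RAF, was the member whose hippocampal response to ethanol differed by genotype. It had 49.3, 48.4, 51.6 and 48.0 CPM in cPAE KO hippocampus, against 37.3, 42.2, 36.9 and 36.4 CPM in cPSE KO hippocampus. It had 39.96, 35.9, 44.2 and 41.8 CPM in cPAE WT hippocampus, against 41.4, 39.95, 44.8 and 47.7 CPM in cPSE WT hippocampus. Of all genes, 4.79% did not overlap between ethanol and saline in KO hippocampus and 6.36% between the genotypes after ethanol. For Spry2 the 4 cPAE KO libraries lay above every other hippocampal library, and the WT groups overlapped. The difference between responses was 0.48 ± 0.09 (adjusted p = 0.0493), with 0.37 ± 0.07 in KO (adjusted p = 0.0535) and -0.11 ± 0.07 in WT (adjusted p = 0.598). KO over WT was 0.29 ± 0.07 after ethanol (adjusted p = 0.0981) and -0.19 ± 0.07 after saline (adjusted p = 0.389). The call of the difference is at the threshold and ended when any 1 of the 16 libraries was left out (adjusted p from 0.0513 to 0.148 and log2 difference from 0.44 to 0.54). Microglia markers moved with it: their sum was 317, 282, 295 and 298 CPM in cPAE KO, against 250, 266, 252 and 279 CPM in cPSE KO hippocampus, and 246, 233, 274 and 273 CPM in cPAE WT, against 260, 265, 265 and 288 CPM in cPSE WT hippocampus. Of the 13 marker lists, microglia had the highest correlation with Spry2 over the 16 hippocampal libraries (0.81, followed by astrocytes at 0.36). In vermis the correlation of Spry2 with microglia markers was -0.57. All 6 microglia markers were detected in every library, and their part in the Spry2 result was not tested.

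**Figure D5:**
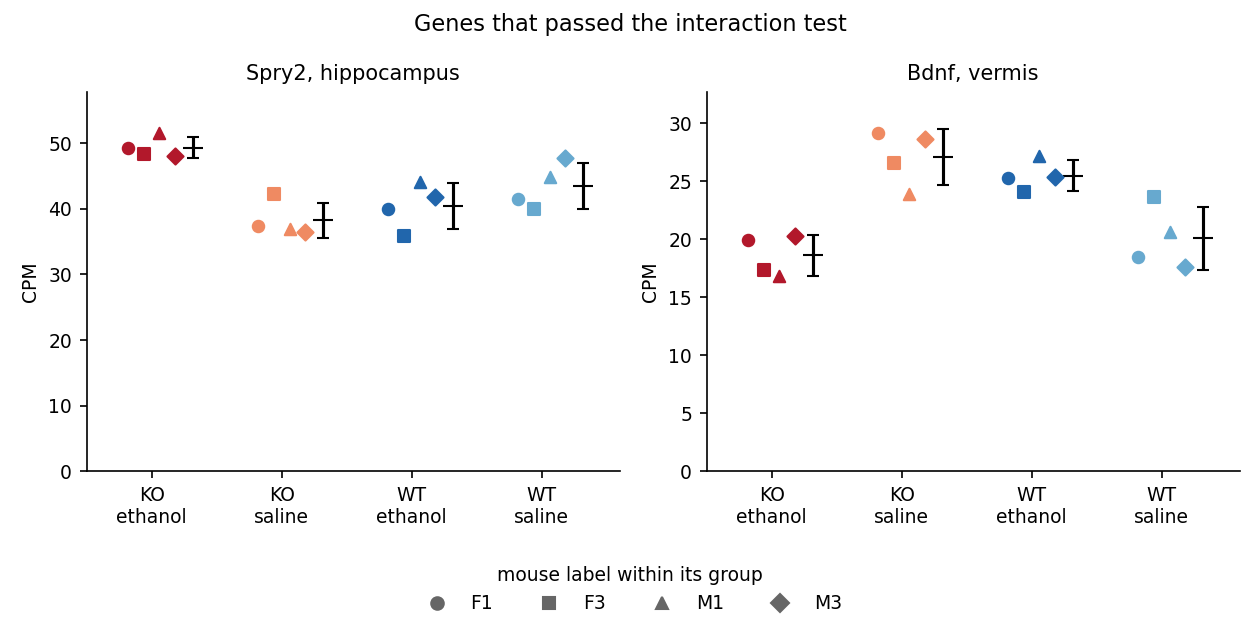
CPM of Spry2 in hippocampus (left) and of Bdnf in vermis (right) in each library, by group, with mean ± SD (n = 4). Spry2 lies at 48.0 to 51.6 CPM in cPAE KO, above the other 12 libraries, and Bdnf lies at 16.8 to 20.3 CPM in cPAE KO, below the cPSE KO and cPAE WT libraries.

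The other hippocampal values were smaller or more scattered. Etv5 had 79.7, 62.3, 90.0 and 62.3 CPM in cPAE KO, against 70.2, 60.9, 57.5 and 62.1 CPM in cPSE KO, and 92.0, 74.8, 72.7 and 79.7 CPM in cPAE WT, against 73.8, 61.2, 60.2 and 50.3 CPM in cPSE WT hippocampus. Its log2 fold change in WT, 0.38 ± 0.12, was not called (adjusted p = 0.341, edgeR). The value in WT vermis was also 0.38 and was not tested. Dusp5 had 16.3, 20.1, 10.3 and 17.95 CPM in cPAE KO, against 19.2, 29.0, 25.8 and 27.8 CPM in cPSE KO hippocampus, with overlap (-0.66 ± 0.22, adjusted p = 0.424). Spry4 did not overlap between cPAE and cPSE WT hippocampus, at 17.04 to 19.6 and 13.1 to 16.96 CPM (0.22 ± 0.09, adjusted p = 0.424). Of all genes, 5.70% did not overlap in that contrast. Spry4 was also lower in KO than in WT after ethanol without overlap (-0.22 ± 0.09, adjusted p = 0.436, edgeR), as 6.36% of all genes did not overlap there. In the remaining genes the log2 fold changes of ethanol ran from -0.28 (Spry1) to 0.08 (Spred3) in KO and from -0.03 (Spry1) to 0.18 (Dusp4) in WT, Dusp6 and Spred2 aside.

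Of the 10 genes, edgeR called 0 for ethanol in KO hippocampus (0.0513% of 23394 genes), 0 for ethanol in WT (0%), 0 for KO after ethanol (0.171%), 0 for KO after saline (0.00427%) and 1, Spry2, for the interaction (0.175%). At an unadjusted p under 0.05 there were 2, 2, 3, 1 and 3 members in the same contrasts, where 9.31%, 10.5%, 9.92%, 8.85% and 9.94% of all genes reached it. With DESeq2 Spry2 was also called for ethanol in KO (adjusted p = 0.000514), for KO after ethanol (0.0138) and for the interaction (0.00155). Over all alternatives its adjusted p ran from 0.000514 to 0.244, from 0.0138 to 0.289 and from 0.00155 to 0.148 in these 3 contrasts.

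Averaged over exposure, none of the 10 genes was called between KO and WT. The log2 fold changes in vermis ran from -0.23 ± 0.20 (Dusp5) to 0.11 ± 0.07 (Etv5), with Dusp6 at -0.04 ± 0.08 and Spred2 at -0.06 ± 0.09. In hippocampus they ran from -0.22 ± 0.16 (Dusp5) to 0.05 ± 0.05 (Spry2). Over all genes 9.2% were called in vermis and 0.137% in hippocampus, and 0 of the 10 members reached an unadjusted p under 0.05 in either tissue. Averaging puts together the opposite genotype differences of Dusp6 and Spred2 after ethanol and after saline. No difference between females and males passed the threshold in any of the 10 genes, where 0.0535% of genes passed in vermis and 0.0769% in hippocampus. The female over male values ran from -0.12 (Spred3 and Etv5) to 0.13 (Dusp5) in vermis and from -0.21 (Spry1) to 0.15 (Dusp5) in hippocampus. In hippocampus 2 members, Spred1 (0.12 ± 0.05) and Spry1 (-0.21 ± 0.10), had an unadjusted p under 0.05 (7.65% of all genes did), and in vermis 0 (3.16% of all genes).

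The genes most like Dusp6 over the 16 vermis libraries, by Pearson correlation of log2 CPM among 13775 genes of at least 1 CPM, were Spred2 itself (0.88), Nostrin (0.84), Frmd6 (0.83), Trappc13 (0.83) and Nampt (0.81). In hippocampus the same 5 pairs had correlations of 0.21, -0.02, 0.29, -0.12 and 0.18. The genes most like Spred2 were Alms1-ps2 (0.92), Frmd6 (0.92), Crk (0.92), Nuak1 (0.92) and Map3k13 (0.91), with -0.21, 0.42, 0.61, 0.84 and 0.76 in hippocampus. Dusp6 and Spred2 were chosen for their shared course in vermis, so their likeness there follows from the choice. Hippocampal values did not choose them, and the lower correlation there was not tested. The points share libraries, depth and cell composition, and the values are a description of likeness.

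Of the pathway around these genes, 115 genes in 7 lists were followed, and 113 were tested. Over all 7 lists, 0 of 113 genes were called for ethanol in KO vermis, in WT vermis, in KO hippocampus and in WT hippocampus by edgeR. At an unadjusted p under 0.05 there were 30, 7, 13 and 14 (26.5%, 6.19%, 11.5% and 12.4%), where 13.3%, 5.32%, 9.31% and 10.5% of all genes reached it. The KO vermis count includes cPAE KO F1 and M3 and was not repeated without them. The lists were chosen with earlier results known and the vermis contrasts chose the members, so nothing is read from these vermis shares. For the interaction 1 gene was called in vermis (0.885%, against 0.107% of all genes) and 2 in hippocampus (1.77%, against 0.175%), and the median log2 difference over the 113 genes was 0.05 in vermis and 0.00 in hippocampus, against 0.03 and 0.01 over all genes.

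The vermis gene was Bdnf, the neurotrophin ligand of TrkB upstream of RAS. As for Dusp6 and Spred2, its cPAE WT and cPSE KO means lay above its cPAE KO and cPSE WT means. The list that held Bdnf was chosen with earlier results of these data known. Its p-values are therefore no separate evidence for the course of Dusp6 and Spred2. Bdnf had 20.0, 17.4, 16.8 and 20.3 CPM in cPAE KO, against 29.2, 26.6, 23.9 and 28.6 CPM in cPSE KO vermis. It had 25.3, 24.0, 27.2 and 25.4 CPM in cPAE WT, against 18.5, 23.7, 20.6 and 17.6 CPM in cPSE WT vermis. Neither pair overlapped, and the difference between responses was -0.87 ± 0.14 (adjusted p = 0.0275). KO over WT was -0.43 ± 0.10 after ethanol (adjusted p = 0.0128) and 0.44 ± 0.10 after saline (adjusted p = 0.0124). The call of the difference ended without any 1 of 8 libraries, F1, M1 and M3 of cPSE WT, F1 and M1 of cPAE WT, F3 and M3 of cPSE KO and M1 of cPAE KO, with an adjusted p of at most 0.0917. The call after ethanol ended without cPAE WT M1 (adjusted p = 0.0540) and the call after saline without M3 of cPSE WT (0.0790) or of cPSE KO (0.0536). Over all alternatives the adjusted p ran from 5.25e-06 to 0.0917 for the difference, from 0.000578 to 0.0540 after ethanol and from 0.000839 to 0.0790 after saline.

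The 2 hippocampal genes were Npas4, an activity-induced transcription factor of neurons, and Fgf10, a ligand of FGF receptors. Npas4 had 12.0, 10.1, 10.1 and 11.2 CPM in cPAE KO, against 8.35, 8.43, 9.21 and 6.63 CPM in cPSE KO hippocampus. It had 7.21, 6.61, 7.76 and 6.51 CPM in cPAE WT, against 12.6, 8.87, 9.11 and 12.6 CPM in cPSE WT hippocampus, with no overlap in either genotype. The difference between responses was 1.05 ± 0.19 for Npas4 and 1.17 ± 0.21 for Fgf10 (adjusted p = 0.0493 for both, edgeR). Fgf10 had 12.4, 12.4, 18.9 and 17.3 CPM in cPAE KO, against 7.46, 11.2, 13.2 and 11.9 CPM in cPSE KO, and 10.0, 9.24, 8.60 and 10.998 CPM in cPAE WT, against 14.1, 17.9, 14.1 and 16.3 CPM in cPSE WT hippocampus, with overlap in KO and none in WT. Both calls ended without any 1 of 15 of the 16 libraries (adjusted p up to 0.122 over all alternatives). Npas4 held without cPSE WT M1, and so did Fgf10 (adjusted p = 0.0355 each).

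Other pathway calls were between genotypes in vermis, where the measure of long against short genes also separated KO from WT. With an offset for transcript length the calls of Dusp2 and Npas4 after ethanol and of Mknk1 averaged over exposure ended (adjusted p = 0.0657, 0.0542 and 0.0620), and the other calls named here held. After ethanol 4 of 113 genes were higher in KO and 2 lower (5.31%, against 7.53% of all genes), and after saline 2 were higher (1.77%, against 4.91%). After ethanol the nuclear MAPK phosphatase gene Dusp2 was higher in KO (0.83 ± 0.23, adjusted p = 0.0382, edgeR). Its level was low, at 0.757 to 1.01 CPM (22 to 58 counts) in cPAE KO and 0.465 to 0.584 CPM (22 to 34 counts) in cPAE WT vermis. Dusp16, a phosphatase of JNK and p38, was lower in KO (-0.38 ± 0.09, adjusted p = 0.0207, edgeR). The vascular receptors Kdr (0.55 ± 0.15, adjusted p = 0.0408) and Pdgfrb (0.36 ± 0.10, adjusted p = 0.0422) and Npas4 (0.91 ± 0.26, adjusted p = 0.04997) were higher in KO. These calls ended without any 1 of 10, 3, 14, 12 and 14 libraries for Dusp2, Dusp16, Kdr, Pdgfrb and Npas4, in that order. The Dusp16 call ended without cPAE WT M1 or F1 or cPAE KO F1 (adjusted p up to 0.0891). Without cPAE KO F1 and M3 together, all 5 of these calls ended: the folds were then 0.74 for Dusp2, -0.29 for Dusp16, 0.40 for Kdr, 0.28 for Pdgfrb and 0.37 for Npas4 (adjusted p = 0.319, 0.157, 0.356, 0.274 and 0.615). Over all alternatives the lowest adjusted p of the 5 genes were 0.0218, 0.00177, 0.00537, 0.0200 and 0.00244. After saline the AP-1 subunit Fosl2 was higher in KO beside Bdnf (0.80 ± 0.19, adjusted p = 0.0190), and its call ended without any 1 of 5 libraries (adjusted p up to 0.118). Averaged over exposure, Kdr (0.41 ± 0.11), Pdgfrb (0.26 ± 0.07), Hras (0.22 ± 0.06) and Araf (0.12 ± 0.04) were higher in KO vermis and Mknk1, a kinase activated by ERK, was lower (-0.20 ± 0.06), 4.425% of the lists against 9.2% of all genes. Each of these 5 calls ended without any 1 of 7 to 13 libraries, and all 5 ended without cPAE KO F1 and M3 together, where the folds were 0.34 for Kdr, 0.22 for Pdgfrb, 0.12 for Hras, 0.08 for Araf and -0.15 for Mknk1.

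Between the tissues 42 of the 113 pathway genes were higher in vermis and 61 lower (91.15%, against 72.6% of all genes). Immediate early genes, the fast transcripts of stimulated neurons, were lower in vermis in 16 of 18 cases, among them Junb (-2.21 ± 0.12) and Npas4 (-1.70 ± 0.09), while Ier2 was higher (1.38 ± 0.08). The median over these 18 genes was -1.48, against -0.03 over all genes tested. Of the other MAPK phosphatases 5 of 7 were higher in vermis, Dusp10 by 2.18 ± 0.10 and Dusp1 by 1.15 ± 0.08, and Dusp7, which like DUSP6 acts on ERK in the cytoplasm, was lower (-1.28 ± 0.06). In the cascade 8 of 26 genes were higher and 16 lower, with Ksr1, a scaffold of RAF and MEK, at -2.48 ± 0.04. Ligands were higher in 8 and lower in 9 of 20 cases (Nrg2 1.77 ± 0.05, Pdgfb -1.30 ± 0.05), and receptors in 7 and 6 of 17 (Kit 2.04 ± 0.13, Pdgfra -1.48 ± 0.07). ERK effectors were higher in 8 and lower in 7 of 16 (Rps6ka1 2.89 ± 0.09, Erf -1.62 ± 0.05), and other ERK-induced transcripts in 4 and 5 of 9 (Etv4 1.16 ± 0.06, Epha4 -4.06 ± 0.11). All folds named here passed with an adjusted p of at most 3.82e-09.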

How the data were processed

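PolyA RNA-seq libraries from 32 samples were compared. Per the submitters' processing notes, reads were handled with bcl2fastq, cutadapt 5.0, STAR 2.7.10a and featureCounts 2.0.6 on GRCm39, and DESeq2 is also named. The deposited table holds raw read counts per gene and the exon length of each gene, and a further deposited table holds counts per transcript. The strand setting of the counting is not given in the sources used here, so reads of antisense genes cannot be told apart. Between 87.0% and 92.1% of the counts from 1 to 10 in a library were even, so mates of a pair appear to have been counted separately, and small counts overstate the number of fragments. The report gives the range of total counts per tissue, and a CPM of 1 stood for 23.1 to 73.8 counts in vermis and 54.1 to 96.7 in hippocampus.

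Counts were tested with edgeR 4.0.16 (quasi-likelihood, robust, TMM scaling, filterByExpr, sex as covariate) in R 4.3.3, in one fit per tissue over all 16 libraries, with Benjamini-Hochberg adjustment over all genes tested and a threshold of 0.05. The tissues were compared with mouse as a block. Log2 CPM used a prior count of 2, and the fits were tested on simulated data. DESeq2 1.42.0, other scaling, no filter, no sex term, a replicate block and leaving out each library were tried as alternatives, and the length offset, the marker covariates and leaving out 2 libraries together were chosen after seeing the data. The members and the gene lists were chosen with earlier results of these data known. Pathway genes named are among those that passed, at most 4 per list and comparison by smallest p. In all 48 pairs of libraries within a group the counts differed beyond counting noise (lowest chi-square divided by its degrees of freedom, 9.05). P-values measure the spread between these mice, each taken as independent. The dams received the ethanol or saline and the labels do not name litters, so differences between litters cannot be told apart from exposure.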

Additional observations from a re-analysis of the deposited data

Results flagged for a closer look

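Of 80 sets of 4 libraries (10 genes, 8 groups), 3 held a library far from the others, where chance gives about 1 in 20. Dusp4 in cPSE WT vermis F3 was at 9.99 CPM. Spred1 in cPSE KO hippocampus F3 was at 141 CPM. Spry2 in cPSE KO hippocampus F3 was at 42.2 CPM.

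By edgeR's interaction test the response to ethanol was called different between KO and WT for 4 genes. They were Spry2 (0.48), Npas4 (1.05) and Fgf10 (1.17) in hippocampus and Bdnf in vermis (-0.87). These calls were fragile to leaving out 1 library. The Spry2 call ended without any 1 of the 16 libraries, those of Npas4 and Fgf10 without any 1 of 15, and that of Bdnf without any 1 of 8. In vermis, KO and WT stood in opposite order after ethanol and after saline, without overlap, for Dusp6 (difference between responses -1.004) and Spred2 (-1.18). These 2 differences were not tested, since they chose the genes, and how many of all genes had such an order was not counted. Ethanol and saline groups stood in opposite order in KO and WT vermis, without overlap, for 71 of 22441 genes and for 0 members.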

How the results depend on the processing

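Of the 479 alternative values that answer a comparison, 32 moved or changed their call, as did 313 of the 995 for single genes and for counts of pathway genes. Of the 10 genes, those called for ethanol in WT hippocampus were 1 without the low-count filter, against 0. For ethanol in KO hippocampus they were 1 with DESeq2, 2 without the filter, 1 with a length offset and 0 to 1 on leaving out 1 library. For KO after ethanol they were 1 with DESeq2 and 1 without the filter. For the interaction, with 1 member called, they were 2 without the filter, and 0 with RLE scaling, a length offset, no sex term, the replicate block or any 1 library left out (0 to 0). With the marker covariate, Spred2 in vermis was -0.44 for KO after ethanol and -0.95 for the interaction. The Dusp6 interaction in hippocampus ran from -0.0236 to 0.212 on leaving out 1 library and changed sign without cPAE WT F3, and the cause was not tested. Genes called for the hippocampal interaction numbered 41 in all, against 272 with DESeq2, 688 without the filter and 23 without the sex term.

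Same-numbered mice of different groups are different animals, and the numbers did not pair them: the median correlation of deviations was -0.106 in hippocampus and -0.100 in vermis, and 4 and 5 of 24 pairs passed 0.1. With the replicate block the interaction of Spry2 had an adjusted p of 0.0673, Bdnf 0.0591 and Fgf10 0.0521 in edgeR. With 4 mice a group, a difference that missed the threshold is not shown to be absent.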
